A study of Homo sapiens with 8 samples.

Results

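The replication origin and fork genes code for the proteins that mark DNA replication origins, load and start the replicative helicase, and copy DNA at the fork, together with the main enzymes of deoxynucleotide supply. They were chosen by symbol as 49 genes in 11 sub-complexes, out of 58233 gene identifiers in the count table, and all 49 were measured and passed the filter on low counts in every comparison. The cells were MCF10A-Hras, made by adding the H-Ras oncogene to MCF10A, a line of human mammary epithelium that does not form tumours by itself. RNA-seq was made from control (WT) cells and from RBM6-KO cells lacking the RNA-binding protein RBM6, each untreated or 12 h after 5 Gy of ionizing radiation (IR), with 2 replicates (A and B) in each of the 4 groups. All 4 groups carried H-Ras and grew in the same medium with horse serum, EGF, hydrocortisone, cholera toxin and insulin. The RBM6-KO cells were 1 CRISPR-Cas9 clone (KO1) grown from a single sorted cell, so an effect of RBM6 and a property of the clone cannot be told apart.

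Before S phase, the origin recognition complex (ORC) binds DNA and, with CDC6 and CDT1, loads the MCM2-7 ring as an inactive double helicase. CDC45 and the GINS complex then turn the ring into the active CMG helicase, polymerase alpha-primase lays down primers, and polymerases epsilon and delta copy the leading and lagging strands on the PCNA sliding clamp. Many of these genes are transcribed at the G1/S boundary under E2F control, and irradiated cells with active p53 arrest their cycle through the CDK inhibitor p21 (CDKN1A), which lowers E2F activity.

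The libraries held 15355281 to 29832009 counts on genes, and each of the 49 genes had 99 to 4467 counts in every library, so none was near the 3 counts that a count of 0 allows. Levels are given as normalized CPM (counts scaled to the size of the library, TMM method), and folds as log2 with their standard error. A gene was called at a Benjamini-Hochberg adjusted p under 0.05 from edgeR's quasi-likelihood test over all genes tested. CDKN1A was at 469 and 448 CPM in untreated control cells and 1717 and 1498 after IR, and at 402 and 382 CPM in untreated RBM6-KO cells and 1605 and 1609 after IR, and it rose in both genotypes (edgeR adjusted p = 0.000536 and 0.00051). RBM6 mRNA itself was at 66.8 and 68.7 CPM in untreated control and 61.4 and 63.1 in untreated RBM6-KO cells (log2 difference -0.14, edgeR adjusted p = 0.712), and at 54.4 and 48.9 CPM in irradiated control and 43.97 and 33.9 in irradiated RBM6-KO cells (-0.40, adjusted p = 0.535), so these counts do not show the deletion. All 10 basal mammary markers were at 1 CPM or more in every library, while 6 of 7 leukocyte, 4 of 7 fibroblast and 2 of 5 endothelial markers, and the luminal markers KRT19, ESR1, PGR and PRLR, stayed under 1 CPM. The summed basal markers ranged from 12428 to 14966 CPM in untreated control, 12436 to 12835 in irradiated control, 11387 to 11519 in untreated RBM6-KO and 10010 to 10688 in irradiated RBM6-KO cells. Most of that sum was LAMB3, at means of 8521 CPM in untreated control and 6604 in untreated RBM6-KO cells. Between untreated genotypes KRT14 of the basal list was higher in RBM6-KO cells (log2 difference 0.78, edgeR adjusted p = 0.0156). CDH3 of that list was lower (-0.62, edgeR adjusted p = 0.0176), and the other basal markers were not called. The summed luminal markers ranged from 700 to 747, 447 to 632, 445 to 561 and 356 to 431 CPM in the same order of groups, and KRT18 of that list was lower in untreated RBM6-KO than control cells (log2 difference -0.63, edgeR adjusted p = 0.0175). The summed fibroblast markers ranged from 81.0 to 108 CPM in the control libraries and from 119 to 211 in the RBM6-KO libraries. That sum was carried by DCN, whereas COL1A1 of the same list had log2 differences of -0.74 and -1.17 between RBM6-KO and control cells, untreated and after IR (adjusted p = 0.0864 and 0.0612). The summed leukocyte markers, mostly LAPTM5, ranged from 19.6 to 24.5, 42.5 to 50.5, 12.4 to 16.4 and 20.0 to 25.6 CPM in the 4 groups, and the endothelial ones from 4.27 to 12.4 CPM over all libraries. Of the endothelial list, KDR was lower in untreated RBM6-KO than control cells (means of 0.28 and 4.90 CPM, log2 difference -3.98, edgeR adjusted p = 0.000378). PECAM1 was higher there without a call (log2 difference 1.16, edgeR adjusted p = 0.0681). The part of these markers in the results was not tested.

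After IR, 4 of the 6 MCM2-7 helicase genes and 1 gene each of the GINS complex, the clamp loader and polymerase epsilon were called lower in RBM6-KO cells. The clamp PCNA was called higher in control cells. All 6 MCM2-7 genes were also below 0 in control cells, and PCNA was above 0 in RBM6-KO cells (log2 change 0.42, edgeR adjusted p = 0.0938). No member was called for a difference in IR response between genotypes. In RBM6-KO cells 7 of the 49 genes fell after IR (14.3%, against 3.23% of all 15598 genes tested) and none rose (2.44% of all genes rose). The 7 were MCM3, MCM5, MCM6, MCM7, GINS2, RFC4 and POLE, and 1 of them, GINS2, changed by at least 2-fold, a limit that 1.97% of all genes passed downwards. In control cells 1 gene, PCNA, rose after IR (2.81% of all 15412 genes rose) and none fell (2.91% of all genes fell). The calls in RBM6-KO cells rested on single libraries in part, with 0 members called without RBM6-KO untreated B, 4 without RBM6-KO IR B and 9 without RBM6-KO IR A, and in control cells none was called without either untreated library. Without control IR A, the log2 changes in control cells were -0.74 for MCM5, -0.64 for MCM7, -0.78 for GINS2 and -0.51 for RFC4. They were 0.74 for PCNA and 0.945 for MCM10 in that fit. With every library, DESeq2 and the upper quartile normalization also called MCM5 lower (adjusted p = 0.0446 and 0.0353) and MCM10 higher in control cells. In the fits that left out a library, the lone library of a group is assumed to vary like the other group.

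The order of the libraries is described next, with no test. In RBM6-KO cells both irradiated libraries lay below both untreated ones for 25 of the 49 genes (51.0%, against 29.5% of all genes) and above them for 11 (22.4%, against 32.6%). In control cells they lay below for 12 genes (24.5%, against 27.7%) and above for 17 (34.7%, against 29.4%). The median log2 change of the 49 genes was -0.19 in RBM6-KO cells, with 32 below 0, and 0.06 in control cells, with 21 below 0, where the median of all genes was -0.01 and 0.02. It was -0.11 in RBM6-KO cells without untreated B and -0.12 without IR B. In control cells it lay between 0.0005 (without untreated B) and 0.16 (without IR B), with 0.02 without IR A and 0.13 without untreated A. The summed level of all 49 genes was 2389 and 2192 CPM in untreated control, 2479 and 2178 in irradiated control, 2495 and 2678 in untreated RBM6-KO, and 2208 and 2174 in irradiated RBM6-KO cells. The irradiated RBM6-KO sums lay below the untreated ones, and the control sums overlapped between treatments. In bulk RNA, fewer cells in a cycle phase and less RNA per cell cannot be told apart.

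Between genotypes, 1 of the 49 genes was higher in untreated RBM6-KO cells, MCM10 (2.38% of all 15556 genes were). None of the 49 was lower there, against 3.73% of all genes. The median log2 difference was 0.20, with 39 of 49 above 0 (79.6%, against 51.0% of all genes), and 10 of the 49 had an unadjusted p under 0.05 (20.4%, against 18.4% of all genes). This median was 0.13 without untreated control B. After IR, 0 of the 49 genes were called between genotypes (1.21% of all 15587 genes were) by edgeR without a replicate block and 0 by DESeq2, 1 of the 49 had an unadjusted p under 0.05 (2.04%, against 11.1% of all genes), and the median was -0.02 (34.7% above 0, against 52.3%). Without control IR B this median was -0.16. Each library enters 2 of the 4 pairwise comparisons. In particular, the untreated RBM6-KO libraries are part of both the genotype comparison before IR and the IR response of RBM6-KO cells, so these are not independent.

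**Figure D1:**
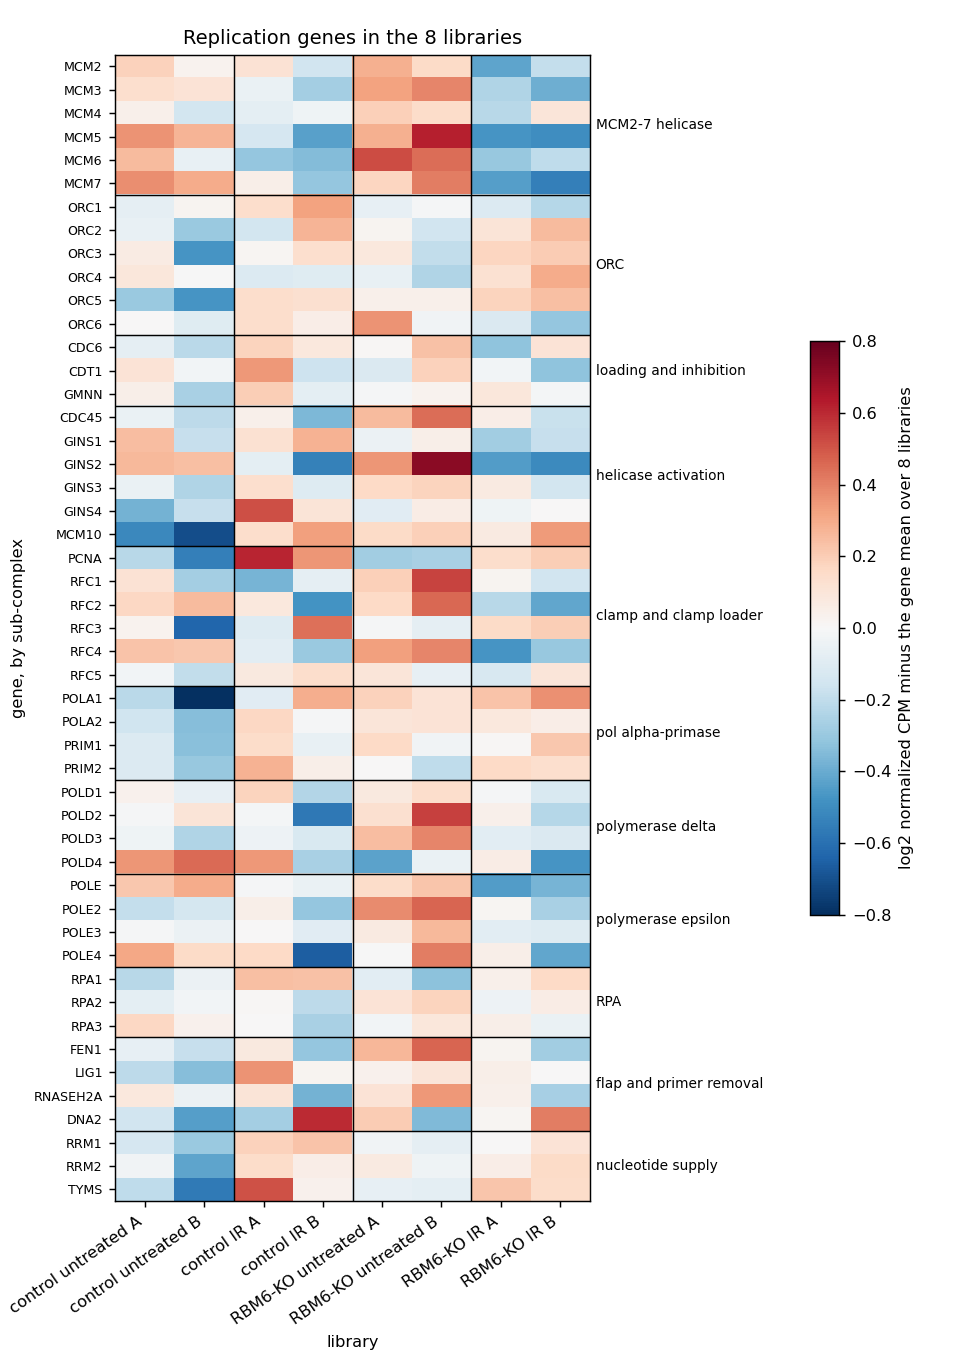
Level of each of the 49 replication genes (vertical axis, grouped by sub-complex) in each of the 8 libraries (horizontal axis), as log2 normalized CPM minus the mean of the gene over the 8 libraries. All 6 MCM2-7 genes are lower in both irradiated than in both untreated RBM6-KO libraries, while PCNA is highest in the irradiated control libraries.

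The MCM2-7 helicase, the motor that unwinds DNA at the fork, had the lowest median log2 change of the 11 sub-complexes after IR in both genotypes, in each of the pairwise fits as reported. Its summed level was 589 and 543 CPM in untreated and 485 and 420 in irradiated control cells, and 602 and 644 in untreated and 391 and 405 in irradiated RBM6-KO cells. The irradiated sums did not overlap with the untreated ones in either genotype, and the means were 566 and 452 CPM in control and 623 and 398 CPM in RBM6-KO cells. The median log2 change was -0.37 in control cells (range -0.60 to -0.02, 0 of 6 called) and -0.72 in RBM6-KO cells (range -0.96 to -0.24, 4 of 6 called), and all 6 subunits were below 0 in both.

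MCM5 was at 90.0 and 84.6 CPM in untreated and 63.8 and 52.0 in irradiated control cells, and at 85.5 and 108 in untreated and 50.6 and 49.6 in irradiated RBM6-KO cells. Its log2 change was -0.96 (standard error 0.17, edgeR adjusted p = 0.019) in RBM6-KO cells, where its level fell by 48.7%, and -0.60 (standard error 0.17, adjusted p = 0.0611) in control cells. MCM5 had the largest drop of the ring, and no irradiated library overlapped with an untreated one. MCM7 was at 178 and 168 CPM in untreated and 142 and 111 in irradiated control cells, and at 154 and 182 in untreated and 101 and 94.0 in irradiated RBM6-KO cells. Its log2 change was -0.80 (standard error 0.15, edgeR adjusted p = 0.0267) in RBM6-KO and -0.46 (standard error 0.17, adjusted p = 0.123) in control cells. Here too the treatments did not overlap, and both irradiated RBM6-KO libraries lay below both irradiated control libraries.

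MCM6 was at 59.9 and 48.2 CPM in untreated and 40.4 and 39.5 in irradiated control cells, and at 72.1 and 68.3 in untreated and 40.7 and 43.6 in irradiated RBM6-KO cells. Its log2 change was -0.75 (standard error 0.15, edgeR adjusted p = 0.0301) in RBM6-KO and -0.44 (standard error 0.19, adjusted p = 0.166) in control cells. The irradiated levels of MCM6 were close in the genotypes, and both untreated RBM6-KO libraries lay above both untreated control libraries (log2 difference 0.37, adjusted p = 0.216). MCM3 was at 98.3 and 96.7 CPM in untreated and 86.2 and 74.0 in irradiated control cells, and at 112 and 117 in untreated and 75.8 and 68.3 in irradiated RBM6-KO cells, with a log2 change of -0.68 (standard error 0.15, edgeR adjusted p = 0.0375) in RBM6-KO and -0.29 (adjusted p = 0.278) in control cells. MCM3 was thus above the control in both untreated RBM6-KO libraries, and its irradiated libraries overlapped between genotypes. The other 2 subunits, MCM2 and MCM4, had log2 changes of -0.54 and -0.24 in RBM6-KO and -0.13 and -0.02 in control cells and were not called. MCM7 shares 392 exon bases with AP4M1 on the opposite strand and the strandedness of the counting is not given in the sources used here, but AP4M1 was at a mean of 14.0 CPM against 141 for MCM7.

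**Figure D2:**
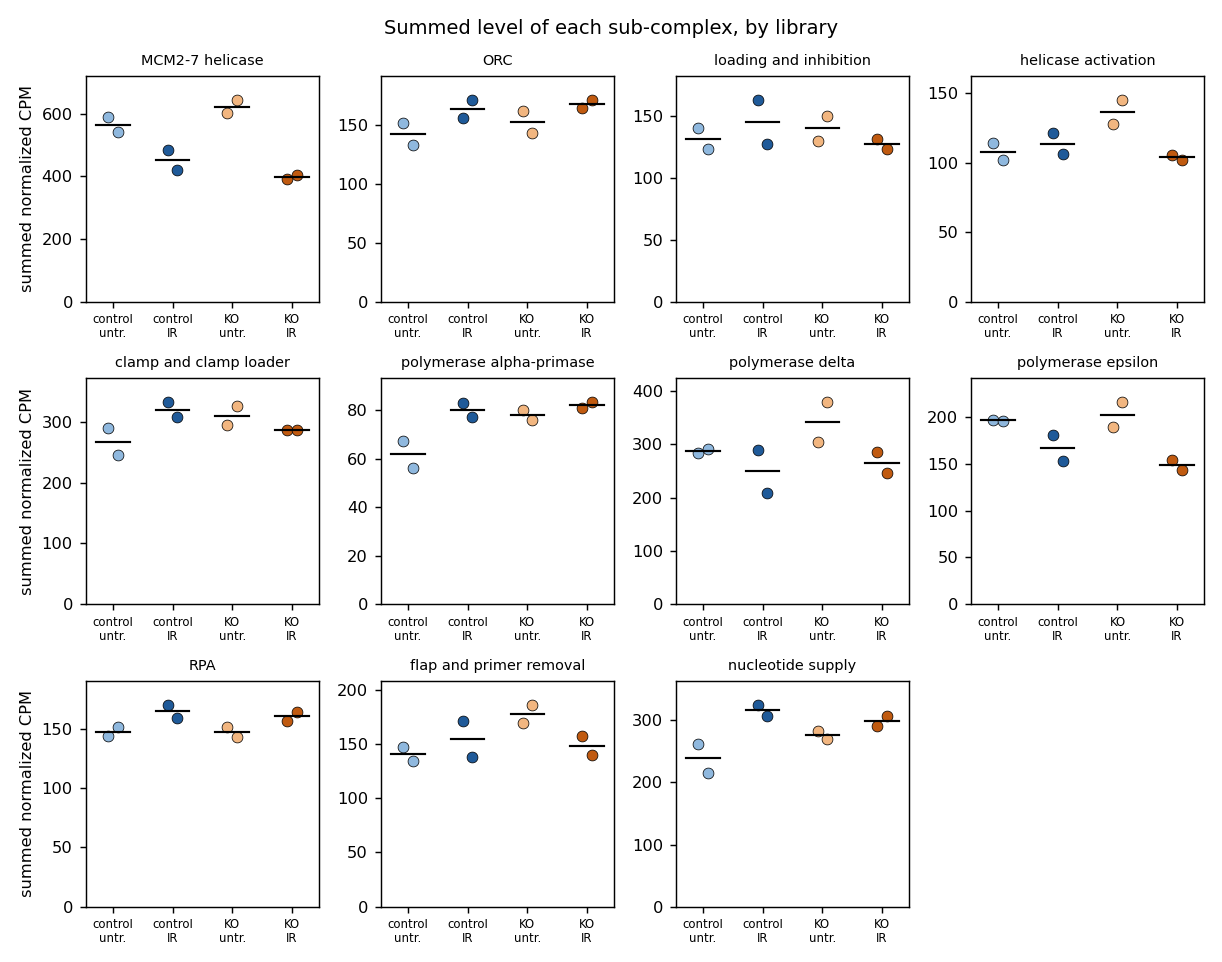
Summed normalized CPM of each sub-complex (vertical axis, from 0) in the 4 groups (horizontal axis). Points are the 2 libraries of a group and bars their mean. MCM2-7 goes from 602 and 644 to 391 and 405 CPM in RBM6-KO cells and from 589 and 543 to 485 and 420 in control cells, while ORC goes from 162 and 144 to 165 and 171 CPM in RBM6-KO cells.

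Promoters from RefSeq (GRCh38.p14; 300 bases, from 250 before to 50 after the start) were matched to 42 of the 49 genes, and not to MCM4, MCM5, GINS4, POLD3, RPA2, RPA3 and DNA2. They were searched on both strands for words of the E2F type (TTTCCCGC, TTTCGCGC, TTTGCCGC and TTTGGCGC). Such a word stood in the promoters of 20 of the 42 genes (47.6%), against 726 of 11107 tested genes with a promoter (6.54%) and 3.31% of all 35116 promoters. By sub-complex it stood in 4 of 4 MCM2-7 genes, 3 of 3 loading and inhibition genes, 3 of 5 helicase activation genes, 3 of 4 polymerase epsilon genes, 2 of 4 polymerase alpha-primase genes, 2 of 6 clamp and clamp loader genes, 1 of 6 ORC genes, 1 of 3 flap and primer removal genes, 1 of 3 nucleotide supply genes, 0 of 3 polymerase delta genes and 0 of 1 RPA gene. The word CCAAT stood in 26 of the 42 genes (61.9%, against 42.7% of the tested genes), and the words TTTGAA or TTCGAA, the CHR type known from mitotic promoters, in 3 of 42 (7.14%, against 15.7%). The 42 genes had 55 promoters in all, and a gene was counted if any of its promoters held the word. A word is a match of letters and not a measured binding site. Each sequence below is from the first promoter of its gene that held an E2F-type word, so it was chosen for that word. The 160 bases just before the start are shown for 4 genes that fell in RBM6-KO cells after IR (MCM6, MCM7, GINS2 and POLE) and for PCNA, which rose in control cells, on the strand of the gene, 5′ to 3′, with E2F-type words of either strand in capitals. They lie on the minus strand at chr2:135876444-135876603 (MCM6), chr7:100101398-100101557 (MCM7), chr16:85688955-85689114 (GINS2), chr12:132687343-132687502 (POLE) and chr20:5126623-5126782 (PCNA).
MCM6: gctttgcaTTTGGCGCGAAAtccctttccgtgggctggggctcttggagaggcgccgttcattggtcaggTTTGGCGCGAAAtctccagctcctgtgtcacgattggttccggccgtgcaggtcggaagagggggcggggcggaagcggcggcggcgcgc
MCM7: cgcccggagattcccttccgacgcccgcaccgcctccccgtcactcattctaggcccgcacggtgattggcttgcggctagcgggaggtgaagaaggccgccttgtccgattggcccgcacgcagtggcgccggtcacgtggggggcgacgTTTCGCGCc
GINS2: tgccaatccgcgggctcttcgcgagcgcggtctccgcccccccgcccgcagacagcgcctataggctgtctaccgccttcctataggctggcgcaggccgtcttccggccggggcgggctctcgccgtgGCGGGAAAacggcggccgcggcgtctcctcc
POLE: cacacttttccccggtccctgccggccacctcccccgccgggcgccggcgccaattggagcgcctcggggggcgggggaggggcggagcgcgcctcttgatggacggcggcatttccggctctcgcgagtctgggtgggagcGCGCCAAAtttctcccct
PCNA: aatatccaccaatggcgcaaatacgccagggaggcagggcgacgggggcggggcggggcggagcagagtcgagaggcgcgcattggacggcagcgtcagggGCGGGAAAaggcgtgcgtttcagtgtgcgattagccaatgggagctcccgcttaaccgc

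In MCM6 the capitals are 2 copies of a 12-base run, each made of 2 overlapping words on opposite strands. Within the 160 bases shown, MCM7 has a single word, which begins 9 bases before the start of that promoter. POLE, GINS2 and PCNA also have a single word there, 18, 31 and 59 bases before the start. Of the 7 genes that fell in RBM6-KO cells, RFC4 had a promoter in the table and no such word, MCM3 had one, and MCM5 was not in the table. PCNA, with the same kind of word, moved in the opposite direction to the MCM genes after IR.

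ORC, which marks origins and serves as the landing pad for the helicase, had no called subunit in any comparison. Its median log2 change after IR was 0.25 in control and 0.19 in RBM6-KO cells, with 5 and 4 of the 6 subunits above 0. ORC5 was at 18.3 and 16.2 CPM in untreated and 24.8 and 24.6 in irradiated control cells, and at 23.1 and 23.1 in untreated and 25.5 and 26.6 in irradiated RBM6-KO cells. Its untreated control libraries were the low ones, and the log2 change in control cells was 0.51 (standard error 0.21, edgeR adjusted p = 0.163). ORC1, whose level is known to vary over the cell cycle, was at 15.8 and 16.8 CPM in untreated and 18.2 and 20.7 in irradiated control cells, against 15.8 and 16.4 and then 15.3 and 14.1 in RBM6-KO cells. ORC4 shares 431 exon bases with ACVR2A and 157 with MBD5 on the opposite strand. ORC2, ORC3 and ORC6 had log2 changes of 0.25, 0.25 and 0.13 in control and 0.23, 0.22 and -0.41 in RBM6-KO cells.

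The loading factors CDC6 and CDT1 and the CDT1 inhibitor geminin (GMNN) were not called in any comparison. CDC6 was at 25.2 and 22.8 CPM in untreated and 30.002 and 28.1 in irradiated control cells, and at 26.7 and 31.2 in untreated and 21.2 and 28.6 in irradiated RBM6-KO cells. Its treatments did not overlap in control cells and overlapped in RBM6-KO cells, with log2 changes of 0.27 (edgeR adjusted p = 0.422) and -0.23 (adjusted p = 0.462). CDT1 had log2 changes of 0.06 and -0.22 in control and RBM6-KO cells, and GMNN of 0.16 and 0.01.

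Among the genes that convert the loaded ring into the active helicase, GINS2 and MCM10 moved in different comparisons. GINS2, a subunit of the GINS complex, was at 25.7 and 25.4 CPM in untreated and 20.3 and 14.8 in irradiated control cells, and at 27.4 and 35.5 in untreated and 15.8 and 15.1 in irradiated RBM6-KO cells. Its log2 change was -1.04 (standard error 0.19, edgeR adjusted p = 0.0245) in RBM6-KO cells and -0.56 (standard error 0.23, adjusted p = 0.156) in control cells. Irradiated and untreated GINS2 levels did not overlap in either genotype. The other GINS subunits did not share this size of change, with log2 changes in RBM6-KO cells of -0.25 for GINS1, -0.22 for GINS3 and -0.02 for GINS4, and of 0.15, 0.15 and 0.59 in control cells. CDC45, the partner of GINS in the CMG helicase, had log2 changes of -0.43 in RBM6-KO and -0.03 in control cells.

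MCM10, which is needed to activate the CMG helicase at origins, was at 8.58 and 7.50 CPM in untreated control cells and at 13.7 and 14.0 in untreated RBM6-KO cells. The log2 difference was 0.77 (standard error 0.22, edgeR adjusted p = 0.0432), or 1.71-fold higher, with no overlap. After IR it was at 13.5 and 15.4 CPM in control and 12.9 and 15.5 in RBM6-KO cells, so the genotypes overlapped (log2 difference -0.02). The log2 change after IR was 0.84 (standard error 0.24, adjusted p = 0.0582) in control and 0.02 (standard error 0.20, adjusted p = 0.948) in RBM6-KO cells. The untreated control libraries were thus the low group of 4. The call on MCM10 was lost by DESeq2 (adjusted p = 0.0964), with 10 counts required in every library (0.0515), with all 8 libraries in 1 fit (0.0607) and in 3 of 4 fits that left out a library.

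**Figure D3:**
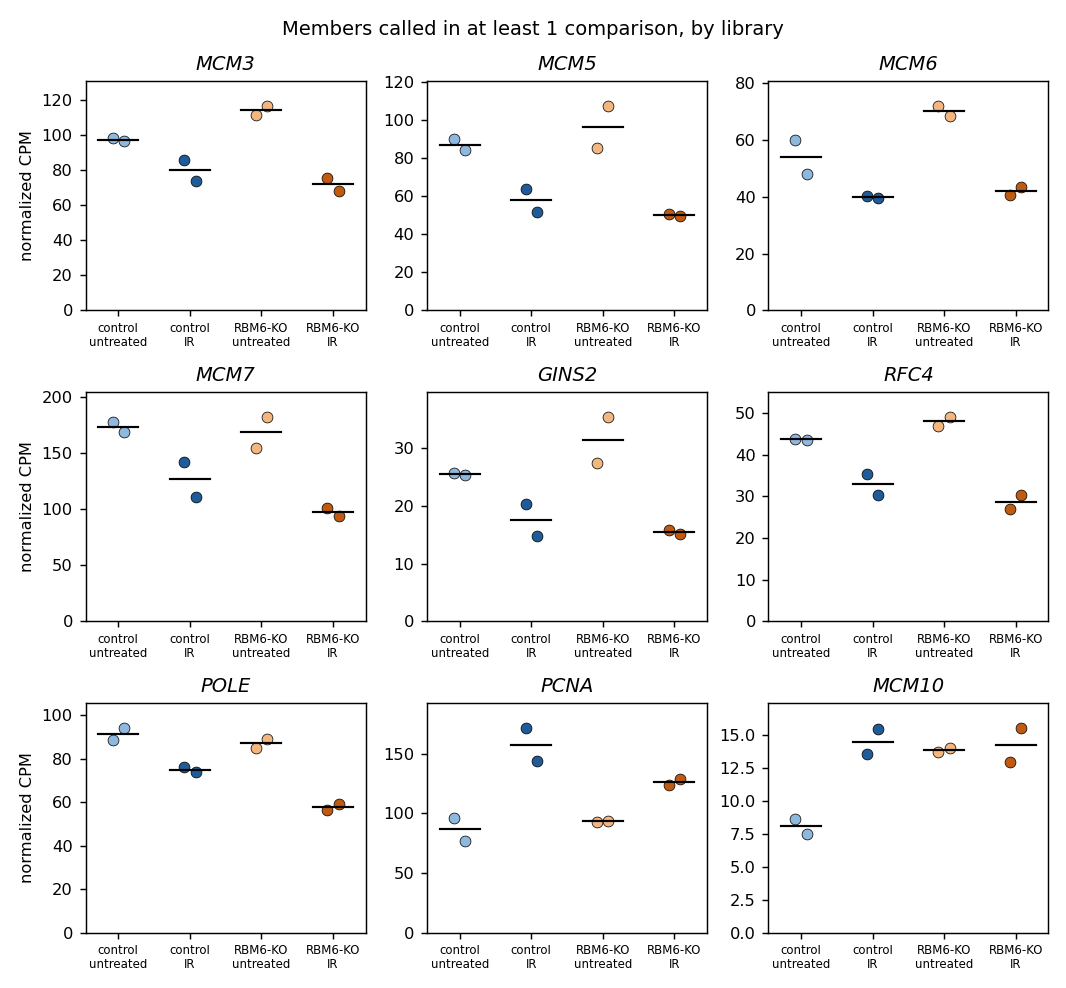
Normalized CPM (vertical axis, from 0) of the 9 genes called in at least 1 comparison, in the 4 groups (horizontal axis). Points are the 2 libraries of a group and bars their mean. The 7 genes from MCM3 to POLE are lower in both irradiated than in both untreated RBM6-KO libraries, PCNA is highest after IR in control cells (172 and 144 CPM), and MCM10 is lowest in untreated control cells (8.58 and 7.50 CPM).

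PCNA, the sliding clamp that holds polymerases on DNA and is also a p53 target, rose in control cells. It was at 96.1 and 76.9 CPM in untreated and 172 and 144 in irradiated control cells, and at 92.7 and 93.6 in untreated and 124 and 129 in irradiated RBM6-KO cells. The log2 change was 0.86 (standard error 0.18, edgeR adjusted p = 0.0216) in control cells and 0.42 (standard error 0.14, adjusted p = 0.0938) in RBM6-KO cells. The treatments did not overlap in either genotype, and both irradiated RBM6-KO libraries were below both irradiated control libraries (log2 difference -0.31, adjusted p = 0.554). PCNA and GINS1 lie on chromosome 20. The genes of that chromosome had a median log2 difference of -0.27 between untreated RBM6-KO and control cells and -0.25 after IR, against 0.01 and 0.02 on the other chromosomes. The part of this in PCNA was not tested. The call on PCNA held without either irradiated library and was lost without untreated control A or B (adjusted p = 0.0555 and 0.294 in edgeR).

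The clamp loader subunits (RFC1 to RFC5), which open PCNA and place it on primed DNA, differed among themselves. RFC4 was at 43.8 and 43.4 CPM in untreated and 35.2 and 30.4 in irradiated control cells, and at 46.9 and 49.1 in untreated and 27.0 and 30.3 in irradiated RBM6-KO cells. Its log2 change was -0.76 (standard error 0.16, edgeR adjusted p = 0.0354) in RBM6-KO and -0.42 (standard error 0.19, adjusted p = 0.187) in control cells, and no library overlapped between treatments. RFC2 had log2 changes of -0.65 and -0.39 in RBM6-KO and control cells, RFC1 of -0.46 and -0.15, RFC5 of -0.05 and 0.21, and RFC3 of 0.20 and 0.46, none of them called. RFC4 shares 18 exon bases with EIF4A2 and RFC5 186 with WSB2, both on the opposite strand and both at a higher level (means of 220 and 88.9 CPM).

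Polymerase epsilon, the leading strand polymerase, had the second lowest median of log2 change after IR in RBM6-KO cells (-0.48, against -0.16 in control cells). POLE, its catalytic subunit, was at 88.8 and 94.2 CPM in untreated and 76.2 and 73.7 in irradiated control cells, and at 84.9 and 89.3 in untreated and 56.2 and 59.2 in irradiated RBM6-KO cells. Its log2 change was -0.61 (standard error 0.15, edgeR adjusted p = 0.0473) in RBM6-KO and -0.30 (standard error 0.16, adjusted p = 0.26) in control cells. After IR both RBM6-KO libraries were below both control libraries (log2 difference -0.37, unadjusted p = 0.0453 and adjusted p = 0.433 from edgeR). The call on POLE was lost whichever of the 4 libraries was left out. The accessory subunits POLE2, POLE3 and POLE4 had log2 changes of -0.55, -0.28 and -0.40 in RBM6-KO and 0.03, -0.02 and -0.44 in control cells.

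Polymerase delta, which copies the lagging strand, and polymerase alpha-primase, which makes the primers, had no called subunit. The median log2 changes after IR were -0.17 and -0.31 for polymerase delta and 0.34 and 0.08 for polymerase alpha-primase, in control and RBM6-KO cells. POLD4, the smallest delta subunit, was at 9.56 and 10.2 CPM in untreated control and 5.57 and 7.20 in untreated RBM6-KO cells, and at 9.51 and 6.24 and then 7.78 and 5.38 after IR. It had the lowest log2 difference of the 49 genes between untreated genotypes (-0.65, standard error 0.24, edgeR adjusted p = 0.135), whereas POLD1, POLD2 and POLD3 were at 0.11, 0.28 and 0.44. POLA1, the catalytic subunit of polymerase alpha, was at 10.8 and 6.80 CPM in untreated control and 14.2 and 13.5 in untreated RBM6-KO cells, and at 11.8 and 15.3 and then 14.7 and 16.1 after IR. The untreated control libraries were again the low ones (log2 difference 0.65, standard error 0.24, edgeR adjusted p = 0.137).

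RPA coats single-stranded DNA at forks and breaks, and its subunits were not called. RPA1 was at 75.0 and 84.6 CPM in untreated and 103 and 103 in irradiated control cells, and at 82.5 and 69.6 in untreated and 89.8 and 97.6 in irradiated RBM6-KO cells. Its irradiated libraries were above the untreated ones in both genotypes, with log2 changes of 0.36 (edgeR adjusted p = 0.188) and 0.28 (adjusted p = 0.253). RPA2 and RPA3 had log2 changes of -0.06 and -0.23 in control and -0.15 and -0.05 in RBM6-KO cells.

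The genes that process Okazaki fragments were not called either. FEN1, the flap endonuclease, was at 43.4 and 40.0 CPM in untreated control and 54.6 and 62.6 in untreated RBM6-KO cells, and at 47.8 and 36.6 and then 46.0 and 37.5 after IR. The untreated RBM6-KO libraries were the high ones (log2 difference 0.48, standard error 0.16, edgeR adjusted p = 0.0901), and irradiated libraries overlapped between genotypes. LIG1, the ligase that joins the fragments, had log2 changes after IR of 0.46 in control and -0.06 in RBM6-KO cells, RNASEH2A of -0.15 and -0.35, and DNA2 of 0.52 and 0.25.

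The nucleotide supply genes had median log2 changes after IR of 0.41 in control and 0.09 in RBM6-KO cells, and none of the 3 was called. Both irradiated libraries lay above both untreated ones for all 3 in control cells and for 2 of 3 in RBM6-KO cells, where RRM2 overlapped. TYMS, thymidylate synthase, was at 29.9 and 23.3 CPM in untreated and 48.8 and 35.2 in irradiated control cells, and at 32.8 and 32.5 in untreated and 40.0 and 38.0 in irradiated RBM6-KO cells. The treatments did not overlap, and the log2 changes were 0.65 (standard error 0.22, edgeR adjusted p = 0.104) and 0.24 (standard error 0.16, adjusted p = 0.336). TYMS shares 967 exon bases with ENOSF1 on the opposite strand, which was at a mean of 29.4 CPM, so reads of the pair may not be told apart. The ribonucleotide reductase subunits RRM1 and RRM2 had log2 changes of 0.41 and 0.30 in control and 0.09 and 0.07 in RBM6-KO cells.

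**Figure D4:**
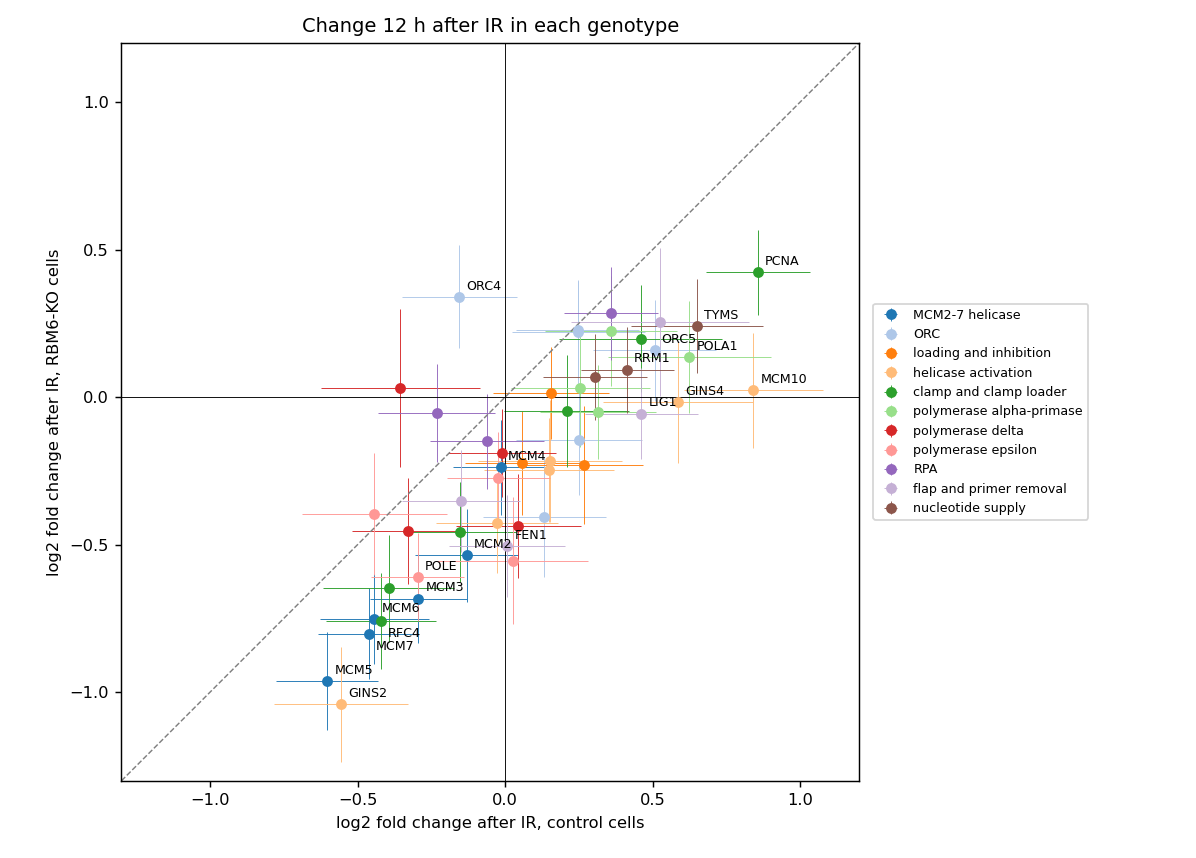
Log2 fold change after IR in control cells (horizontal axis) and in RBM6-KO cells (vertical axis) for the 49 genes, coloured by sub-complex, with standard errors as bars and the line of equal change dashed. Most points lie under the dashed line, 13 genes lie above 0 in control and below 0 in RBM6-KO cells, and the MCM2-7 genes lie at the lower left.

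The difference between the IR responses was tested directly over all 8 libraries. By edgeR 0 of 16549 genes were called (0.0%), and so 0 of the 49, and DESeq2 also called 0 genes. An unadjusted p under 0.05 was found for 306 genes (1.85%) and 3 of the 49 (6.12%). The median interaction of the 49 genes (RBM6-KO minus control, log2) was -0.31, with 45 of 49 below 0 (91.8%), where the median of all genes was -0.01 and 51.3% were below 0. Genes of one pathway share libraries and regulation, so the 49 values are not independent and no p is given for them. A fall in RBM6-KO cells without a call in control cells is therefore not shown to differ between genotypes for any single gene.

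Between the sub-complexes, the median interaction was -0.44 for helicase activation, -0.39 for flap and primer removal, -0.34 for MCM2-7, -0.31 for nucleotide supply, -0.29 for polymerase alpha-primase, -0.28 for the clamp and clamp loader, -0.28 for polymerase epsilon, -0.27 for loading and inhibition, -0.18 for ORC, -0.14 for polymerase delta and -0.07 for RPA. The order is not firm. Over the other settings the median ranged from -0.61 to -0.32 for helicase activation, -0.46 to -0.26 for MCM2-7 and -0.48 to -0.0009 for loading and inhibition. It changed sign for polymerase delta and RPA when a library was left out. The 6 MCM2-7 genes lay between -0.40 and -0.22. Of the members, MCM10 (-0.81, standard error 0.27), LIG1 (-0.51, standard error 0.22) and ORC4 (0.50, standard error 0.23) had unadjusted p-values of 0.0125, 0.0435 and 0.0493 from edgeR's model across all genes, and adjusted p-values of 1. ORC4, POLD4, RPA3 and POLE4 were the 4 genes above 0. By direction alone, 13 genes (26.5%) were above 0 in control and below 0 in RBM6-KO cells, against 8.88% of the 14866 genes tested in both, 2 were the reverse, 15 were above 0 and 19 below 0 in both.

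Genes around the replication machinery were described by fixed lists. Of 28 accessory replication factors, 1 was higher in untreated RBM6-KO cells (3.57%, against 2.38% of all genes), CLSPN, the adaptor of the ATR-CHK1 checkpoint (log2 difference 1.08, standard error 0.21, edgeR adjusted p = 0.00322). After IR, 4 of the 28 fell in RBM6-KO cells (14.3%, against 3.23% of all genes), namely CLSPN (-1.67), the PCNA unloader ATAD5 (-1.21), the helicase RECQL4 (-0.86) and the histone chaperone CHAF1A (-0.83), and in control cells none fell and 1 rose (3.57%, against 2.81%), CHTF8 (0.69), part of an alternative clamp loader. The medians of the list were -0.12 in control and -0.27 in RBM6-KO cells. Its median interaction was -0.18, with 27 of 28 below 0 (96.4%, against 51.3% of all genes) and none called, so it shared the direction of the 49 genes. Of 20 other nucleotide enzymes, the p53-inducible reductase subunit RRM2B rose in both genotypes (1.55 in control, 1.88 in RBM6-KO cells) and DCK rose in RBM6-KO cells (1.04), so that 1 of 20 rose in control (5.0%, against 2.81%) and 2 in RBM6-KO cells (10.0%, against 2.44%), and none fell.

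Of 18 E2F, RB and DREAM factors, E2F1 fell in control (-0.95, edgeR adjusted p = 0.0428) and RBM6-KO cells (-1.36, adjusted p = 0.012) and was higher in untreated RBM6-KO than control cells (0.64, adjusted p = 0.0459). E2F2 fell in both (-1.74 and -1.79), the repressor E2F7 rose in control cells (1.16), and MYBL2 fell in RBM6-KO cells (-0.74). Of the 18, 2 fell in control (11.1%, against 2.91%) and 3 in RBM6-KO cells (16.7%, against 3.23%), and 1 rose in control cells (5.56%, against 2.81%). Of 24 mitotic genes, 10 fell in control (41.7%, against 2.91%) and 18 in RBM6-KO cells (75.0%, against 3.23%), with medians of -0.72 and -1.03, and the median interaction was -0.33 with 24 of 24 below 0, so the mitotic list shared the direction of the replication genes in that test and had no called gene. CDC20 had log2 changes of -1.32 in control and -1.76 in RBM6-KO cells, and CENPF of -1.13 and -2.22, all called, and CENPF was also higher in untreated RBM6-KO than control cells (0.76). Of 20 p53 targets, 14 rose in each genotype (70.0%, against 2.81% in control and 2.44% in RBM6-KO cells), with medians of 1.05 and 0.94. In untreated cells 3 of the 20 p53 targets were lower in RBM6-KO than in control cells (against 3.73% of all genes), GDF15 (-0.69), BBC3 (-0.90) and DDB2 (-0.57), and DDB2 was also lower after IR (-0.91), as 1 of 20 (5.0%, against 0.84%).

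Levels of different genes are compared per length, as FPKM over the union of exons in GENCODE v44. In untreated control cells PCNA was highest (61.6) and MCM7 next (34.9), and POLA1 was lowest (0.566), followed by GINS4 (1.42) and MCM10 (1.47). With the length of 1 canonical transcript the order at the top changed to POLD2 (117), MCM7 (70.1) and PCNA (67.8).

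The base composition of transcripts and, after IR, their length moved with the fold changes. Across genes, Spearman's correlation of log2 change with GC content was -0.30 and -0.32 for RBM6-KO against control (untreated and after IR), -0.28 and -0.25 for the IR responses of control and RBM6-KO cells, and 0.01 for the interaction. With transcript length it was 0.36 and 0.32 for the IR responses of control and RBM6-KO cells. It was 0.015 and -0.017 for RBM6-KO against control (untreated and after IR), and -0.05 for the interaction. Within a group, the log2 ratio of replicate B to A correlated with GC content at 0.42, -0.43, 0.18 and -0.26 (untreated control, irradiated control, untreated RBM6-KO and irradiated RBM6-KO cells). These are correlations across genes, which are not independent replicates. The 49 genes had a median GC content of 46.4% against 48.3% for all genes, and the MCM2-7 genes of 53.8%. With a trend in GC content, transcript length and level removed, the median of the 49 genes was 0.18 between untreated genotypes, -0.09 between irradiated genotypes, 0.05 and -0.22 for the IR responses of control and RBM6-KO cells, and -0.31 for the interaction. No such median was taken for single sub-complexes, so the part of this trend in the MCM2-7 change was not tested.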

How the data were processed

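RNA-seq libraries (TruSeq mRNA, paired-end reads) from 8 samples were processed by the authors, who used the hg38 genome; the deposited values are whole-number counts for each Ensembl gene identifier, not normalized. The submitters' processing notes name STAR and DESeq2 without a role; the counting tool, the annotation and the strandedness are not given in the sources used here. The study calls the replicates biological. Symbols came from GENCODE v44, which holds 57392 of 58233 identifiers.

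The members and lists were chosen with earlier results of these data known. Tests were run with edgeR 4.0.16 in R 4.3.3 (TMM, filterByExpr, quasi-likelihood test, Benjamini-Hochberg adjustment over all genes tested), each pairwise comparison on its own 4 libraries and the interaction on all 8. The standard error is the size of the log2 change over the square root of F. With 2 against 2 libraries an exact permutation test cannot go below p = 0.333, so none was used. DESeq2 1.42.0, other normalizations and filters, a replicate block, 1 fit over 8 libraries, a 2-fold limit and each library left out were alternatives; removal of trends in GC content, length and level was added after seeing the data. Values per library are given for members called in any of the 5 tests or with the smallest unadjusted p of their sub-complex. They are also given for ORC1, which met neither rule. Of related lists up to 4 called genes are named per comparison, and some called genes of those lists are not named. Depth was 15355281 to 29832009 counts per library, with at least 99 counts for each member in each library; limits from counts cover counting error only. The fits were tested on simulated data.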

Additional observations from a re-analysis of the deposited data

Results flagged for a closer look

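In 4 members both irradiated libraries lay on one side of both untreated ones in control cells and on the other side in RBM6-KO cells. ORC1 had log2 changes of 0.25 in control and -0.15 in RBM6-KO cells (difference -0.39, unadjusted p = 0.139 from edgeR). ORC4 had -0.16 and 0.34 (difference 0.50, unadjusted p = 0.0493 from edgeR). ORC6 had 0.13 and -0.41 (difference -0.53, unadjusted p = 0.0685 from edgeR). POLA2, a regulatory subunit of polymerase alpha, had 0.32 and -0.05 (difference -0.36, unadjusted p = 0.129 from edgeR). The edgeR adjusted p was 1 for each, so none of these differences passed the test. Such opposite moves were found in 4 of the 49 members (8.16%) and in 246 of 16549 genes (1.49%). The 3 ORC subunits did not move in 1 direction, ORC4 being higher and ORC1 and ORC6 lower after IR in RBM6-KO cells.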

How the results depend on the processing

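The fall of MCM5, MCM7 and GINS2 in RBM6-KO cells was called in all 7 other settings that used every library and the adjusted p alone, and the median change of MCM2-7 there stayed between -0.76 and -0.66. No value changed direction past the threshold. In untreated cells the members called between genotypes went from 1 to 0 with at least 10 counts in every library, DESeq2, all 8 libraries in 1 fit or the 2-fold limit, and ranged from 0 to 3 with a library left out. In control cells after IR the count went from 1 to 3 with the upper quartile, no filter or DESeq2, to 2 with all 8 libraries and to 0 with the 2-fold limit, and from 0 to 13 with a library left out. In RBM6-KO cells after IR it went from 7 to 1 with the 2-fold limit and ranged from 0 to 9 with a library left out. Between irradiated genotypes the median ranged from -0.16 to 0.0023 with a library left out. After IR in control cells, the median change of the clamp and clamp loader (-0.10 to 0.16), polymerase delta (-0.41 to 0.0057) and RPA (-0.16 to 0.04) changed sign when a library was left out. In RBM6-KO cells after IR, that of RPA did (-0.10 to 0.01). Between untreated genotypes ORC (-0.01 to 0.24), loading and inhibition (-0.04 to 0.26), polymerase epsilon (-0.0041 to 0.20) and RPA (-0.08 to 0.05) did. Between irradiated genotypes, so did ORC, polymerase alpha-primase, polymerase delta, polymerase epsilon, RPA, flap and primer removal and nucleotide supply. In the interaction, polymerase delta (-0.34 to 0.11) and RPA (-0.13 to 0.07) did. The interaction had no called member in any setting; without a filter 1 gene of 32842 was called.

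The replicate letters were tested for pairing by correlating deviations from group means, which gave r from -0.44 to 0.55 over the 6 pairs of groups. The labels do not say that a letter marks a shared batch or day, and the correlations had both signs, with 0.55 between the 2 irradiated groups, so the letters were not taken as pairs. Between irradiated genotypes the replicate block took the calls over all 15587 genes tested from 58 higher and 131 lower to 1067 and 1349. With it, 4 of the 49 members were called lower in RBM6-KO cells. These were GINS1, MCM7, PCNA and POLE (edgeR adjusted p = 0.0302, 0.0124, 0.0304 and 0.0111). With the block 3 members were also called higher in untreated RBM6-KO than control cells, where 578 of all 15556 genes were. In RBM6-KO cells after IR 3 members were called lower, where 559 of all 15598 genes were. MCM3, MCM6, RFC4 and POLE were not called there (adjusted p = 0.101, 0.0671, 0.0708 and 0.154 from edgeR).

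Calls over all genes after IR, higher and lower, were 380 and 504 in RBM6-KO cells, 933 and 661 by DESeq2 and 1537 and 1263 without a filter, and in control cells 433 and 448, 680 and 442, and 1246 and 828. In control cells they were 2605 and 2060 without control IR A.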
